A study of Mus musculus with 3 samples.

Results

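The p200 or Ifi200 family is a group of interferon-inducible genes that lie next to each other in 1 cluster on mouse chromosome 1. Its 7 named members here were Ifi203, Ifi204, Ifi205, Ifi209, Ifi213, Mnda and Pyhin1, and a member was taken as every non-control probe that carried its name as gene name. Of the 7 names, 4 were found (Ifi204, Ifi205, Ifi209 and Ifi213), with 7 of the 56605 non-control probes on the arrays, against 36870 gene names in all. Ifi203, Mnda and Pyhin1 were not used as gene names by the array. In the RefSeq gene table Pyhin1 is a synonym of Ifi209 and Mnda a synonym of Ifi211, and a probe described as an Ifi203 transcript is given below with the other genes of the locus.

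RNA of RAW264.7 cells, an established mouse macrophage line, was measured on 3 one-colour Agilent arrays, with 1 array for each condition. All 3 groups were challenged with lipopolysaccharide (LPS), the agonist of the receptor TLR4, and RNA was taken 3 h later. The first group received LPS alone, the second received Lactiplantibacillus plantarum LOC1 before LPS, and the third received L. plantarum LOC3 before LPS. The strains, both from tea leaves, were given for 12 h by the design text of the series, whereas the methods of the study give a longer time. The array of unchallenged macrophages was not analysed here, so values against unchallenged cells come from the deposited log2 ratios only. With 1 array per condition there is no replicate error and no test, a difference may belong to the culture or the array, and less RNA per cell cannot be told apart from fewer cells that express a gene.

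Proteins of this family carry a pyrin domain that binds other proteins, or HIN domains that bind DNA, or both. Several of them, Aim2 and p204 (the product of Ifi204) among them, are known as sensors of DNA in the cytosol or nucleus, and others as regulators of proliferation, differentiation and transcription in myeloid cells. They are classed as interferon-stimulated genes because interferon, acting through the receptor for type I interferon and factors that include Stat2 and Irf9, raises their transcription.

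Upstream sequences of the locus are shown because most p200 genes with a window, though not all, hold an interferon-type motif there. The motif searched was GAAANNGAA, the core of an interferon-stimulated response element, on both strands of RefSeq windows that run from 250 bases before to 50 bases after a gene's start (GRCm38.p6). It was held by 8.56% of all 32851 windows and by 10 of the 14 windows of 12 p200 genes. Those genes were Ifi203, Ifi205, Ifi206, Ifi207, Ifi208, Ifi211, Ifi213, Ifi214 and Mndal, whereas Aim2, Ifi202b and Ifi209 had no match. The table holds no window for Ifi204, so of the 4 members found on the arrays Ifi205 and Ifi213 held the motif. Each stretch below is written 5′ to 3′ on the gene's own strand, ends at or before the start of the gene, and has the 9 letters of the motif in capitals. For Ifi209 the capitals mark the 9 letters at the same place in the stretch most like that of Ifi213, and they are not a match.
Ifi213, chr1:173599301-173599360, minus strand, motif 73 bases before the start: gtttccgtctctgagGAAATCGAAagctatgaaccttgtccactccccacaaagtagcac
Ifi208, chr1:173673592-173673651, plus strand, motif 58 bases before the start: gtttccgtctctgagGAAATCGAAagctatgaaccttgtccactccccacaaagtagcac
Ifi206, chr1:173491319-173491373, minus strand, motif 40 bases before the start: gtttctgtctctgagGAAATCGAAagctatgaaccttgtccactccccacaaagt
Ifi214, chr1:173535992-173536051, minus strand, motif 79 bases before the start: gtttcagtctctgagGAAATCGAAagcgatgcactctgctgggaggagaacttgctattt
Ifi209, chr1:173630765-173630824, plus strand, capitals 79 bases before the start: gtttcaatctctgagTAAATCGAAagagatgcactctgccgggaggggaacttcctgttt
Ifi203, chr1:173942493-173942542, minus strand, motif 35 bases before the start: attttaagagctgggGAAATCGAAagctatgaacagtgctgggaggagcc
Ifi205, chr1:174031845-174031904, minus strand, motif 134 bases before the start: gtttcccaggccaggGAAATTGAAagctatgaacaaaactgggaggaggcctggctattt
Ifi211 (Mnda), chr1:173913047-173913098, minus strand, motif 37 bases before the start: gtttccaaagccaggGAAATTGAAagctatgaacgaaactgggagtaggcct

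The stretches of Ifi213 and Ifi208 were identical over all 60 bases, and that of Ifi206 matched them at 54 of 55 bases. The motif had the form GAAATCGAA in 7 of the genes and GAAATTGAA in Ifi205 and Ifi211. The second motif searched, TTCNNNGAA, a gamma-activated site, was held by 8.3% of all windows and by 1 p200 window, that of Ifi202b. A match is a string of letters in this window and does not show that a factor binds there.

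The 7 member probes were read on all 3 arrays: each was well above background there, none was flagged as an outlier and none was saturated. Intensities are the processed signals of the scanner software, and differences between arrays are log2 values after each array was set to its own 75th percentile. Levels of different probes are not compared, since probes differ in how strongly they bind. Probes printed 10 times on each array gave a technical SD of 0.061 for the log2 difference of 2 arrays at a bright probe (log2 level of -1 or above, relative to the 75th percentile) and of 0.31 at a dim one. The dim value rests on 10 to 12 probes per array, of any level below -1, and the bright value on 269. This SD covers the printing and reading of spots and not the spread between cultures. The macrophage identity of the RNA was checked with 7 markers (Adgre1, Csf1r, Cd68, Itgam, Ptprc, Lyz2 and Cd14), which were all well above background on all 3 arrays with intensities from 7886 to 244528. Of the 13 markers of T cells, B cells, neutrophils, epithelium and fibroblasts, Cd3e, S100a8, Col1a1 and Pdgfra were well above background on all 3 arrays, and the highest intensity among the 13 was 451.

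**Figure D1:**
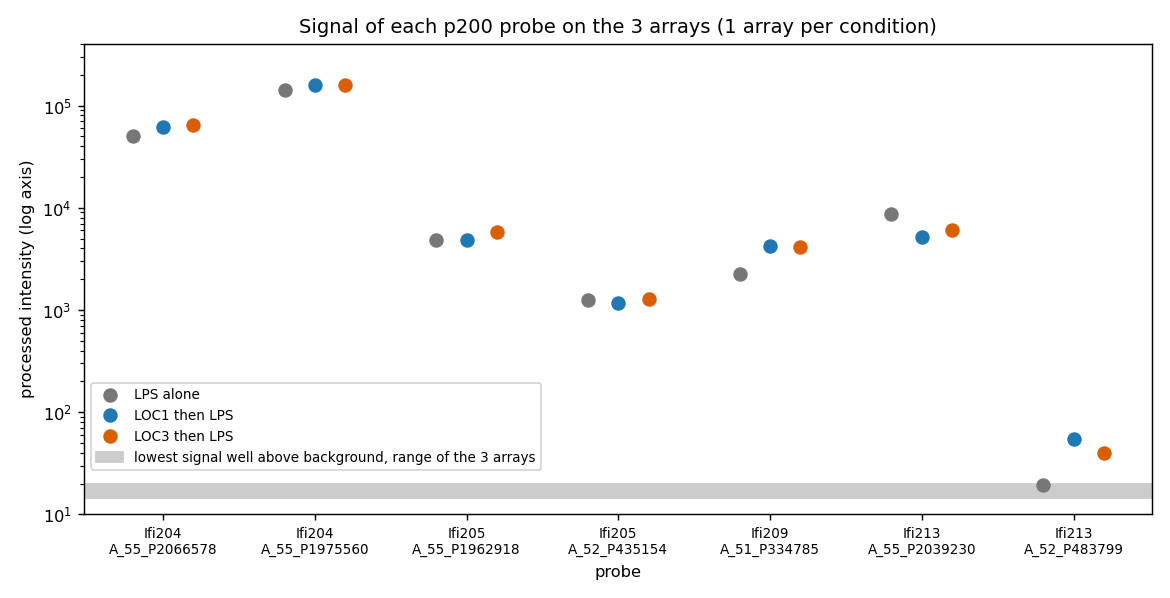
Processed intensity (log axis) of the 7 member probes on the 3 arrays, 1 point per array, with the range of the lowest signal well above background (14.5 to 19.8) as a grey band. The 3 points of a probe lie close together except for Ifi209 and for the 2 probes of Ifi213, which differ in opposite directions.

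With LPS alone, all 4 members found had a probe listed as higher than in unchallenged cells. The deposited table lists a log2 ratio for 6 of the 7 member probes, all 6 of them higher and none lower. Of all 56605 probes, 7.08% were listed as higher. That share includes probes without signal: 51.9% of all probes were well above background on the LPS array, whereas every member probe was. The sets are therefore not alike. A probe outside the deposited table has no value against unchallenged cells, and this holds for 1 probe of Ifi205. A missing ratio need not mean a response under 2-fold.

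Ifi204 encodes p204, a nuclear and cytosolic DNA sensor that also takes part in macrophage differentiation. Its probe A_55_P2066578 had a deposited log2 ratio to unchallenged cells of 6.02 with LPS alone, 6.46 with LOC1 and 6.54 with LOC3. Its other probe, A_55_P1975560, had ratios of 4.65, 4.96 and 4.96. The 2 probes lie 35 bases apart, at chr1:175677552-175677611 and chr1:175677647-175677706 (mm9, minus strand), and placed the LPS response at 64.7-fold and 25.03-fold.

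Ifi205, also known as D3, encodes a nuclear protein with a pyrin and a HIN domain. Probe A_55_P1962918 had deposited log2 ratios of 9.06 for LPS alone, 9.21 after LOC1 and 9.48 after LOC3. The signal that the first ratio implies for unchallenged cells was 9.05. This falls below 16.3, the dimmest reading of the LPS array that still counted as well above background. If that reading also held for the unchallenged array, which was not analysed, the response was at least 297-fold. The dimmest such reading ran from 14.5 to 19.8 over the 3 arrays. The accessions the array gives for this probe belong to Ifi205 and to Ifi211 (Mnda) in RefSeq, so its signal may come from either gene.

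Ifi209, the gene with the synonym Pyhin1, was measured by 1 probe (A_51_P334785) whose 60 bases are spread over chr1:175574960-175576173 (mm9), as for a probe across an exon junction. The deposited log2 ratios were 7.55 with LPS, 8.60 with LOC1 and 8.58 with LOC3. The implied unchallenged signal, 11.9, was also below 16.3, and by that reading of the LPS array the response to LPS alone was at least 137-fold.

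Ifi213 is a less studied gene of the cluster whose product is predicted to be a p200 protein. Its bright probe, A_55_P2039230, had the smallest ratio of the 6, 1.51 with LPS (2.85-fold), no listed ratio with LOC1 and 1.14 with LOC3. Its dim probe, A_52_P483799, was listed at 2.64 with LPS, 4.29 with LOC1 and 3.84 with LOC3. With the unchallenged signal of the dim probe raised to that reading, its response to LPS was only bounded at 1.18-fold, and 5 of the 7 member probes, still of all 4 members found, were then at least 2-fold higher with LPS.

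**Figure D2:**
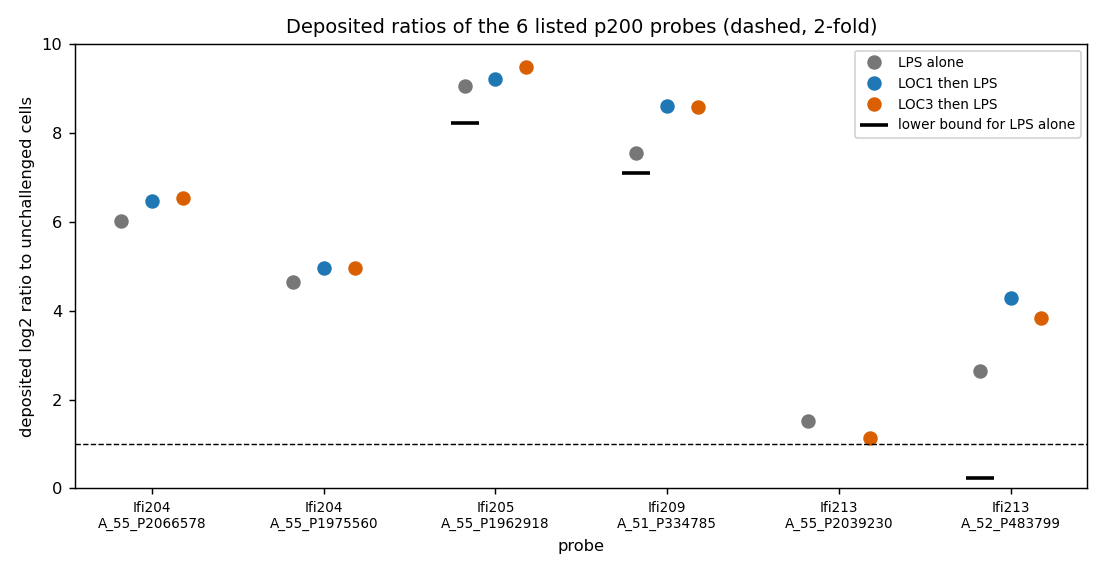
Deposited log2 ratio to unchallenged cells (vertical axis) of the 6 listed member probes, 1 point per array where a ratio is listed. A black bar marks the lower bound with LPS alone where the implied unchallenged signal was under the floor of the LPS array. The ratios with LPS alone run from 1.51 at the bright probe of Ifi213 to 9.06 at Ifi205.

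LOC1 before LPS, compared with LPS alone, asks how the strain changed the response of macrophages to TLR4 activation. Of the 4 members found, 1 was at least 2-fold higher, Ifi209, and none was at least 2-fold lower. Of all 20018 genes compared, 2.49% passed 2-fold upward and 3.81% downward. The median log2 difference over the 4 members was 0.20, beside 0.0015 over all genes. Read by probe, 2 of the 7 member probes were at least 2-fold higher, beside 2.2% of all probes.

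LOC3 before LPS also had Ifi209 as the highest of the members found and Ifi213 as the lowest, but no member reached 2-fold. Of all 19789 genes compared, 2.97% passed 2-fold upward and 3.18% downward. The median log2 difference over the 4 members was 0.32, beside 0.015 over all genes. By probe, 1 of the 7 was at least 2-fold higher, beside 2.56% of all probes. Both comparisons use the same LPS array, so a high or low reading there moves both of them together.

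Ifi209 had intensities of 2238 with LPS alone, 4195 with LOC1 and 4140 with LOC3. It was higher on both strain arrays, by 2.03-fold with LOC1 (log2 1.02) and by 1.99-fold with LOC3 (log2 0.99), each more than 10 times the technical SD of 0.061. The values lie on either side of the 2-fold threshold by 0.02 or less on the log2 scale, so the difference of 1 call between the strains is smaller than the technical SD. Under the alternative settings the log2 difference with LOC1 ranged from 0.98 to 1.24 and that with LOC3 from 0.94 to 1.17. It passed 2-fold with both strains under median scaling, from the deposited ratios and with each probe counted once in the percentile. It passed with neither under quantile normalization, the percentile over detected probes and normexp. The filter, outlier and probe-choice settings could not move it, since its 1 probe was unflagged and detected on every array.

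Ifi204 read 141338 with LPS alone, 159075 with LOC1 and 158897 with LOC3 on its brighter probe. On the log2 scale it was 0.28 above LPS alone with LOC1 and 0.27 with LOC3. On its other probe the intensities were 49788, 61333 and 64720, with differences of 0.41 and 0.48. Both probes were higher on both strain arrays and neither approached 2-fold. Gapdh, a glycolytic enzyme often taken as a reference, differed by a similar amount, 0.26 with LOC1 and 0.31 with LOC3, and Actb, which encodes actin, by 0.03 and 0.08.

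Ifi205 read 4842 with LPS alone, 4857 with LOC1 and 5850 with LOC3 on the probe it may share with Ifi211. The log2 differences were 0.12 and 0.38. The probe whose accessions belong to Ifi205 alone, A_52_P435154 at chr1:175956747-175956806 (mm9), read 1261, 1179 and 1294. Its differences were 0.02 and 0.14, of which the first is under the technical SD and was below 0 in 3 of the 5 other scalings and background corrections, with quantile normalization (-0.02), with the percentile taken over detected probes (-0.03) and with normexp (-0.03). With both strains the 2 probes of Ifi205 differed from each other by more than that SD.

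Ifi213 was the member whose probes disagreed in direction. The bright probe read 8688 with LPS alone, 5126 with LOC1 and 6095 with LOC3, which is lower with both strains (log2 -0.65 and -0.41). The dim probe read 19.3, 54.5 and 40.0, which is higher with both (log2 1.61 and 1.16). The direction of Ifi213 therefore depends on the probe that is read, and by the rule that the brightest probe stands for a gene it was lower. The first 30 bases of each probe are printed here because the direction turns on them, and the probes lie apart in the genome, at chr1:175498593-175498652 and chr1:175522791-175522850 (mm9).
A_55_P2039230 (bright probe, lower): ggcttaagtgctgggtatggaaattgcaat
A_52_P483799 (dim probe, higher): tttatggtcttaacaggctacatatagtag

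On the LPS array the dim probe was barely detected, at 19.3 against a detection floor of 16.3, and its differences stand beside a technical SD of 0.31. That SD pools 10 to 12 dim probes and is not specific to signals this near the floor. With normexp background correction, which lifts dim signals, its differences were 0.59 and 0.43 and no longer 2-fold. The bright probe stayed lower with both strains under each of the 5 other scalings and background corrections tried on single probes, from -0.70 to -0.43 with LOC1 and from -0.49 to -0.22 with LOC3.

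LOC1 and LOC3 were also set against each other. None of the 4 members differed 2-fold between the strains, and 2.63% of all 19381 genes compared did. The log2 difference, LOC1 less LOC3, was 0.01 for Ifi204, 0.03 for Ifi209, -0.24 for Ifi213 and -0.26 for Ifi205 on their brightest probes. For Ifi204 and Ifi209 this is under the technical SD, and for Ifi205 and Ifi213 it is over it. The dim probe of Ifi213 differed by 0.46 in the opposite direction to its bright probe, so the order of the strains also turned with the probe.

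**Figure D3:**
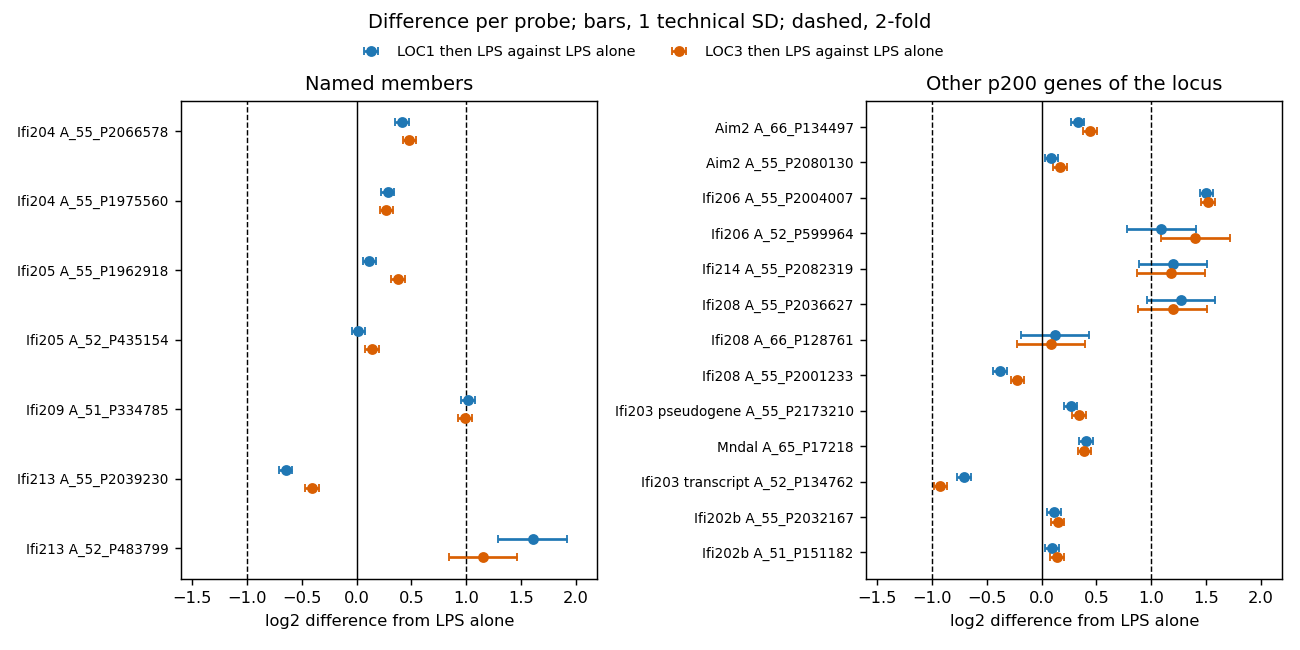
Log2 difference from LPS alone (horizontal axis) for each member probe (left) and each probe of the other p200 genes (right), with LOC1 in blue, LOC3 in orange, 1 technical SD as error bars and 2-fold as dashed lines. Ifi209, the dim probe of Ifi213, both probes of Ifi206, Ifi214 and 1 probe of Ifi208 lie near or past 2-fold higher, and the bright probe of Ifi213, 1 probe of Ifi208 and the Ifi203 transcript lie below 0.

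The other p200 genes of the locus were read by 13 probes of 8 gene names, picked by name or by the description on the array. Of all genes, 2.49% passed 2-fold upward with LOC1 and 2.97% with LOC3, and 3.81% and 3.18% passed downward. By brightest probe 2 of the 8 were at least 2-fold higher with both strains and none was 2-fold lower, with medians of 0.30 with LOC1 and 0.37 with LOC3. The 2 were Ifi206 and Ifi214, which neighbour Ifi213 in the cluster. Under its array name LOC102639543, Ifi206 read 165 with LPS alone, 432 with LOC1 and 439 with LOC3 on one probe (2.84-fold and 2.87-fold). Its second probe read 53.1, 105 and 131 (2.13-fold and 2.65-fold), so both probes were past 2-fold. Ifi214 read 67.4, 143 and 142 (2.30-fold and 2.27-fold). With normexp the brighter probe of Ifi206 stayed past 2-fold with both strains, whereas Ifi214 was at log2 0.75 and 0.73 and the dimmer Ifi206 probe at 0.61 and 0.80. By the LPS array's floor, the response to LPS alone was at least 10.1-fold for the first Ifi206 probe and 4.13-fold for Ifi214.

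Ifi208, whose upstream stretch was identical to that of Ifi213, was read by 3 probes that disagreed in the same manner. Its bright probe read 10891 with LPS alone, 7740 with LOC1 and 8690 with LOC3 (log2 -0.38 and -0.22). A dim probe read 66.5, 149 and 142 (log2 1.27 and 1.20, or 0.85 and 0.78 with normexp), and another read 52.5, 52.9 and 51.9 (log2 0.12 and 0.09). In Ifi208 as in Ifi213, the bright probe was lower with both strains and a dim probe was more than 2-fold higher with both. The deposited log2 ratio with LPS alone was 1.19 for the bright probe of Ifi208, beside 1.51 for that of Ifi213.

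The probe described as an Ifi203 transcript was the lowest of the p200 probes. Ifi203 encodes a nuclear p200 protein. The probe read 2506 with LPS alone, 1417 with LOC1 and 1228 with LOC3 (log2 -0.71 and -0.93), which is lower with both strains but short of 2-fold. Its deposited ratio with LPS alone was 4.83, so it was listed as higher after LPS. A probe described as an Ifi203 pseudogene read 23612, 26261 and 27867 (log2 0.27 and 0.34).

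Aim2, the DNA sensor that assembles an inflammasome with Pycard and Casp1, read 3415 with LPS alone, 3966 with LOC1 and 4321 with LOC3 on its brighter probe (log2 0.33 and 0.44). Its other probe read 2211, 2173 and 2314 (log2 0.09 and 0.17), nearer to LPS alone, and has no listed ratio to unchallenged cells. Mndal, a p200 gene named for its likeness to the human myeloid nuclear differentiation antigen, read 21332, 26142 and 26006 (log2 0.41 and 0.39). Ifi202b, which encodes a protein with HIN domains but no pyrin domain and is known as an inhibitor of Aim2, read 103025, 101836 and 105563 (log2 0.10 and 0.14, or -0.03 and -0.0063 with quantile normalization). Its second probe differed by 0.11 and 0.15. The deposited log2 ratios with LPS alone were 1.24 for the brighter probe of Aim2, 3.50 for Mndal and 2.69 for Ifi202b.

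Between the outermost member probes, at chr1:175498593-175956806 (mm9), the array has 14 further probes without a p200 name, and 12 of them were detected on some array. One of the 12, described as a predicted gene, was at least 2-fold higher with both strains, at 115 with LPS alone, 226 with LOC1 and 267 with LOC3 (log2 1.08 and 1.31). Among all probes compared, 2.2% passed 2-fold upward with LOC1 and 2.56% with LOC3. Of the 14, 7 are reverse-strand lincRNA probes with intensities from 5012 to 136326, and their differences ran from -0.03 to 0.46 with LOC1 and from -0.03 to 0.48 with LOC3. One of these shares sequence with Ifi204. The first 30 bases of the brighter Ifi204 probe matched 30 bases of that lincRNA probe at 28 positions, and the pair is shown because either probe may then bind both transcripts, with the mismatched bases in capitals.
Ifi204 probe A_55_P1975560, bases 1 to 30: agtcGggagaaCctctctggaaccatactt
lincRNA probe A_30_P01024163, bases 31 to 60: agtcAggagaaActctctggaaccatactt

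That lincRNA probe differed by 0.35 with LOC1 and 0.41 with LOC3, beside 0.28 and 0.27 for the Ifi204 probe. For the other 6 member probes, the most alike probe of the locus matched at 52.0% to 62.7% of the aligned bases. How far related transcripts bind to these probes was not tested.

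Genes known to act upstream of the p200 family or beside it were read from lists. The shares of all genes past 2-fold were 2.49% upward and 3.81% downward with LOC1, and 2.97% and 3.18% with LOC3. Of 12 interferon signalling genes, 1 was at least 2-fold higher with both strains and none was 2-fold lower, with medians of 0.18 with LOC1 and 0.21 with LOC3. It was Ifnb1, the gene of interferon beta, at 1251 with LPS alone, 29911 with LOC1 and 18122 with LOC3 (log2 4.69 and 3.96). The lowest of the list was Irf8, a factor of macrophage development, with LOC1 (-0.68) and Ifnar1, a chain of the type I interferon receptor, with LOC3 (-0.75).

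Of 20 other interferon-stimulated genes, all 20 were above 0 with both strains (18 of 20 with quantile normalization), 2 were at least 2-fold higher with both and none was 2-fold lower, with medians of 0.44 and 0.49, beside the 2.49% and 2.97% of all genes that passed upward. With median scaling 5 passed with LOC1 and 4 with LOC3 (Mx1 and Herc6 with both, Ifit2 with LOC1), and with quantile normalization 1 passed with each strain. The 2 were Ifit3, an antiviral protein of the Ifit family, whose intensity went from 12660 with LPS alone to 33122 with LOC1 and 28854 with LOC3, and Cmpk2, a mitochondrial nucleotide kinase (log2 1.12 and 1.08, or 0.99 and 0.93 with quantile normalization). The lowest was Gbp2, a guanylate-binding protein (0.04 and 0.08, and below 0 with quantile normalization). Ifi209 was thus nearer to Cmpk2 than to the median of this list, whereas Ifi204 and Ifi205 were under that median with both strains.

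The 16 genes of DNA sensing found among 18 names work with p200 proteins or beside them. Their medians were 0.02 with LOC1 and 0.09 with LOC3 (-0.02 and 0.02 with quantile normalization). None passed 2-fold with LOC1 and 1 did with LOC3, upward, beside 2.49% and 2.97% of all genes that passed upward. The one was Zbp1, a nucleic acid sensor of cell death pathways (log2 0.98 and 1.002), whose values with the 2 strains differed by less than the technical SD. It passed with both strains under median scaling and with each probe counted once in the percentile, and with neither under quantile normalization, the percentile over detected probes and normexp. The lowest was Il1b, the cytokine matured by the Aim2 inflammasome (-0.95 and -0.71), which was 2-fold lower with LOC1 under quantile normalization (-1.04). Tmem173, which encodes STING, the adaptor through which p204 and cGAS signal, differed by 0.43 and 0.51.

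**Figure D4:**
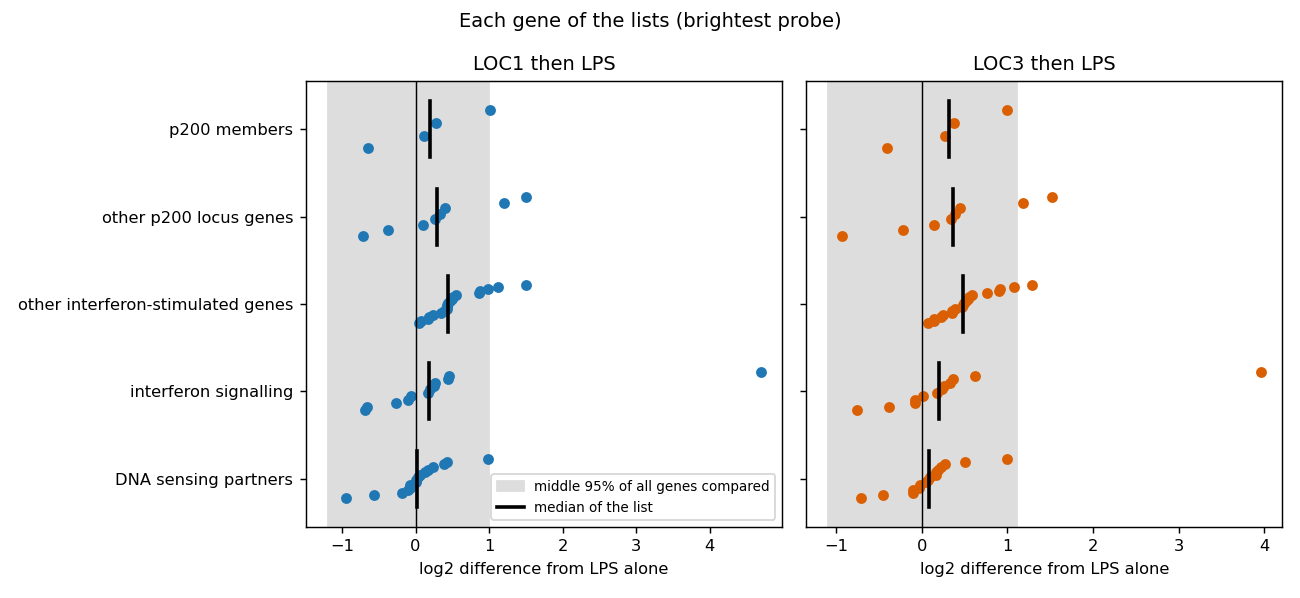
Log2 difference from LPS alone (horizontal axis) of each gene of the 5 lists by its brightest probe, with LOC1 on the left and LOC3 on the right, the median of each list as a black bar and the middle 95% of all genes compared in grey. The members spread from -0.65 to 1.02 with LOC1, and Ifnb1 stands apart at 4.69.

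Outside the lists, the 5 genes nearest to the medians of the members were found among 2964 genes. All 3 arrays detected these genes, and they have a listed LPS ratio. Likeness was the Euclidean distance over 3 log2 values, the difference with LOC1, the difference with LOC3 and the deposited ratio with LPS, from the medians of the 4 members (0.20, 0.32 and 6.10). The last median lies between 4.65 for Ifi204 and 7.55 for Ifi209, and no member had a ratio near it. The ratio of Ifi209 rests on an unchallenged signal under the floor, so the distances are not exact. The nearest was Marco, a scavenger receptor of macrophages (0.38, 0.41 and 5.92, distance 0.26). Mir155hg, the host transcript of a miRNA, followed (0.33, 0.07 and 5.88, distance 0.35), and then Gm17757, Gm4759 and Il23r at distances of 0.38. The 3 values, each from 1 array per condition, give no more than this order.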

How the data were processed

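RNA of 3 RAW264.7 groups was hybridised to Agilent SurePrint G3 mouse arrays, 1 per condition, on 1 slide with 1 scan. The deposited intensity values are the authors' Feature Extraction output (version 12.0.3.1 and build mm9 per the file headers), background-corrected but not normalized between arrays. The deposited log2 ratios against unchallenged cells were made by the authors in GeneSpring and list values of at least 2-fold. A blank need not lie under 2-fold. Of 2 adjacent probes of 1 lincRNA, at 49761 and 53461 with LPS alone, the second has a ratio of 4.15 and the first has none. The cause was not tested. The submitters' notes name limma and R 3.2.5. Differences between deposited columns equal those of the intensities apart from a constant of 0.03 to 0.04, so both are 1 measurement. The scanner's flags for signal well above background, saturation and outliers are other deposited columns.

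Outlier spots were left out (118 to 135 per array), spots of a probe were averaged as log2 values, and the 75th percentile over all non-control spots (513 to 555) was subtracted. A gene was its brightest probe and was compared where 1 or both arrays detected it, and the lowest signal well above background (14.5 to 19.8) stood in for a lower one. Between 47.8% and 51.9% of probes were well above background, and the number of arrays limits the precision. No test was run, and the threshold was 2-fold. The t-test named in the methods needs more arrays. Python 3.11.15, numpy 2.4.6, pandas 2.3.3, matplotlib 3.10.9 and, for normexp with an offset of 50, limma 3.58.1 in R 4.3.3 were used. The calculation was tested on simulated data. Promoter windows are RefSeq's on GRCm38.p6, another build than that of the probes, and no coordinates were converted.

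The members and gene lists were chosen with earlier results of these data known. All member probes are named. List genes are named where past 2-fold with both strains or highest or lowest. Mx1, Herc6 and Ifit2 are named because median scaling moved them past 2-fold. Aim2, Mndal, Ifi202b, Ifi208, Tmem173 and the Ifi203 probes were added for their roles.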

Additional observations from a re-analysis of the deposited data

How the results depend on the processing

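The number of members at least 2-fold higher with LOC1, 1 by the reported setting, was 0 with quantile normalization, with the percentile taken over probes that every array detected, with normexp and at 3-fold, and 2 from the deposited ratios and with the dimmest probe of each member. With LOC3 it was 0 and became 1 with median scaling, from the deposited ratios, with each probe counted once in the percentile and with the dimmest probe. The last of these settings, and counting each probe once, were chosen after seeing the data. The member median with LOC1, 0.20, was 0.42 with median scaling, 0.13 with quantile normalization, 0.68 from the deposited ratios, 0.41 as the mean of detected probes and 0.72 with the dimmest probes. With LOC3, 0.32 became 0.51 with median scaling, 0.22 with quantile normalization and 0.74 with the dimmest probes. The median of LOC1 less LOC3, -0.12, was 0.015 from the deposited ratios, -0.00059 as the mean of detected probes and -0.020 with the dimmest probes. Median scaling raised every difference, all genes included, by 0.22 with LOC1 and 0.18 with LOC3.

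Of all genes, 499 were higher and 762 lower with LOC1, against 884 and 472 with median scaling, 213 and 208 with normexp, 627 and 610 with quantile normalization, 315 and 455 from the deposited ratios, 1434 and 2405 with no filter and no floor and 184 and 226 at 3-fold. With LOC3, 588 were higher and 629 lower, against 862 and 393 with median scaling, 251 and 158 with normexp, 309 and 418 from the deposited ratios, 295 and 416 with signal required on both arrays, 1648 and 2131 with no filter and no floor and 254 and 144 at 3-fold. The cause of these changes was not tested. Ifi204, Ifi205 and Ifi209 stayed above 0 with both strains in all 11 settings. The filter and outlier settings among these could not move a member, since every member probe was unflagged and detected on every array. For Ifi205 the scalings and background corrections read the probe it may share with Ifi211. The probe of Ifi205 alone was below 0 with LOC1 under quantile normalization, the percentile over detected probes and normexp. Ifi213 kept its lower value in 8 of 11 settings with LOC1 and in 9 of 11 with LOC3, and was higher as the mean of its probes (0.48 and 0.37), with its dim probe (1.61 and 1.16) and, with LOC1, from the deposited ratios (1.64). The last value is again the dim probe, since no ratio is listed for the bright one with LOC1, and it enters the count of 2, the median of 0.68 and the 0.015 given above for the deposited ratios. No paired analysis was possible because each condition has 1 array. Each member probe was printed once, and the dim probe of Ifi213 lies near the lowest signal well above background.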
